A study of Homo sapiens with 21 samples.

Results

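RNA from 2 groups of leukaemia cells labelled resistant to StAMP was compared, 3 libraries against 3, to find out how far a second resistant biological replicate (resistant 2 here) differed from the first (resistant 1). All 6 libraries are labelled as OCI-AML3, a line from an acute myeloid leukaemia, with StAMP as the treatment, a resistant genotype and sequencing batch 2, and they are 6 of the 21 libraries of the series. The title speaks of stapled oncolytic peptides; the labels do not spell out StAMP. Not given in the sources used here are the culture and selection of the cells, the dose and time of StAMP, and whether a biological replicate is 1 clone. The 3 libraries of a group are 3 samples of 1 biological replicate, so every p-value below measures the spread between those samples, which may be technical, and not the spread between selections. Of 28008 genes in the deposited table, 14097 passed the low-count filter and were tested.

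Stapled peptides are peptides held in a helix by a chemical cross-link, and an oncolytic peptide kills a tumour cell by damaging its membranes. The series title names membrane cholesterol and inflammatory signalling. Cells make cholesterol through a chain of enzymes controlled by the SREBP factors. Inflammatory signals reach the nucleus through NF-kB, the STAT factors and the interferon regulatory factors. K562, which was derived from a patient with blast-phase chronic myeloid leukaemia, makes fetal globins and other red cell proteins.

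The labelled cell type was checked first. Among 304 genes seen in OCI-AML3 parental libraries and nearly absent from K562 parental libraries, the summed level in CPM (counts per 1e6 counts) was 24.5 ± 3.35 (SD, n = 3) in resistant 1 and 26.8 ± 6.67 (SD, n = 3) in resistant 2, against 15300 to 15830 in the vehicle libraries of the same batch. The ranges of the 2 resistant groups overlapped, 21.4 to 28.1 CPM and 19.9 to 33.3 CPM (exact permutation test, two-sided, p = 0.7; 3 against 3 cannot go below 0.1, so the test cannot show a difference at 0.05). Among 250 genes seen in K562 and nearly absent from OCI-AML3, the sum was 15320 ± 269 in resistant 1 and 14780 ± 526 in resistant 2 (n = 3 each, exact permutation p = 0.3). Both groups thus carried the K562 genes and not the OCI-AML3 genes, against their label, and "resistant" is used below only as the name of a label.

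Total counts per library were 30.7 to 49.6 (in units of 1e6) in resistant 1 and 41.4 to 43.7 in resistant 2. The first principal component held 66.1% of the variance and separated the groups. The second held 15.5% and set the library numbered 2 of each group apart from the other 2 (−23.9 against 16.9 and 10.4 in resistant 1, −33.2 against 14 and 15.7 in resistant 2). The count over all genes, and the main list counts that moved by over 1.5 times, are given with and without those libraries.

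Of the 14097 genes tested, 3242 (23.0%) were called at an adjusted p under 0.05 (edgeR quasi-likelihood test with Benjamini-Hochberg adjustment, as for every adjusted p below). In resistant 2, 1581 genes (11.2%) were higher and 1661 (11.8%) lower. The difference was at least 2-fold (a log2 fold change of 1 or more in size) for 756 genes that were higher and 577 that were lower. The 3 libraries of each group did not overlap for 3163 of the called genes. A call with 3 libraries against 3 mostly needs such a separation. Here and below it is thus a description and adds no support to a call. Without both libraries numbered 2, the counts rose to 3073 higher and 2874 lower, and 3181 of the 3242 calls were shared, all in the same direction. Leaving out library 1 or 3 of either group lowered the counts, to 829 higher and 952 lower without library 3 of resistant 1. Leaving out library 2 of resistant 2 raised them to 2410 and 2261.

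**Figure D1:**
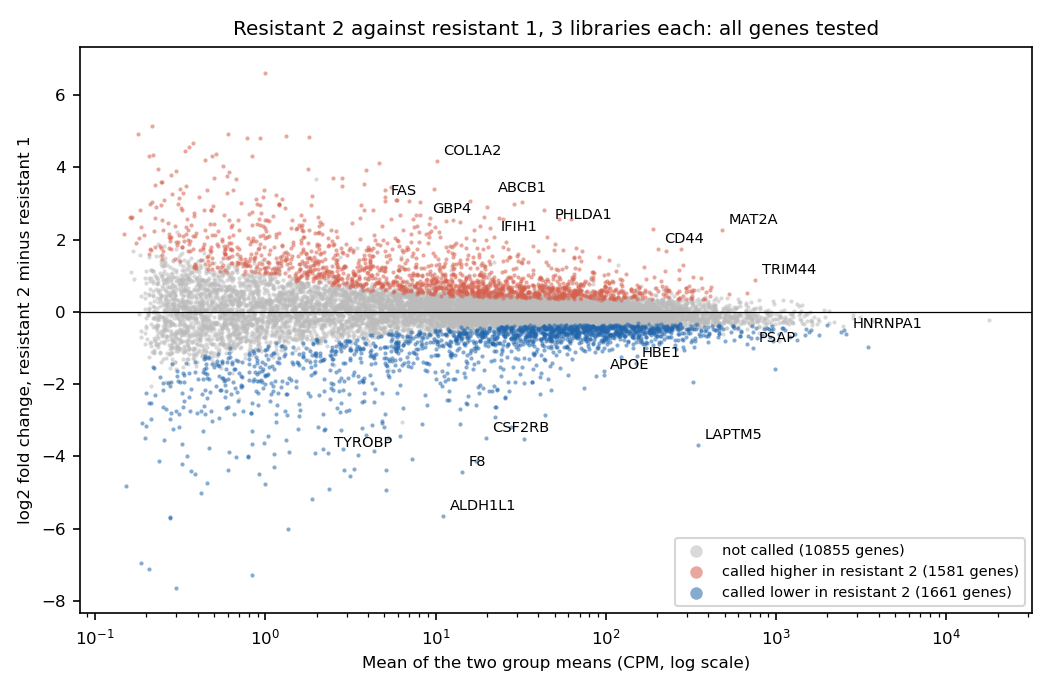
Log2 fold change of each of the 14097 genes tested (resistant 2 minus resistant 1) against the mean of its group means in CPM on a log axis; red marks the 1581 genes called higher, blue the 1661 called lower and grey the rest. LAPTM5 and ALDH1L1 lie far below 0, and COL1A2, ABCB1 and MAT2A far above.

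The genes with the greatest falls included regulators of blood cell signalling. ALDH1L1, a folate enzyme, was at 23.3, 19.5 and 22.5 CPM in resistant 1 and at 0.353, 0.523 and 0.425 CPM in resistant 2 (log2 fold change −5.65 with SE 0.21, adjusted p = 1.2e-07). LAPTM5, a lysosomal membrane protein of blood cells, was at 585, 666 and 682 CPM in resistant 1 and at 39.9, 59.7 and 50.3 CPM in resistant 2, which is 12.9-fold lower (adjusted p = 2.9e-07). The groups lay far apart for both genes, and the number 2 libraries did not stand out. CSF2RB, the shared signalling chain of the receptors for GM-CSF, interleukin 3 and interleukin 5, was at 36.3, 27.3 and 45.5 CPM in resistant 1 and at 2.23, 3.38 and 4.09 CPM in resistant 2 (log2 fold change −3.49, SE 0.25). The other genes named for the greatest falls were the coagulation factor gene F8 (−4.43), the amino acid transporter SLC6A19 (−4.14), the glycosphingolipid enzyme B4GALT6 (−4.08), the lysophospholipid acyltransferase LPCAT2 (−3.51), CATSPERB (−3.43), the surface glycoprotein CD52 (−3.19), ADTRP (−3.11), the corepressor TLE4 (−3.09), TMEM132D-AS1 (−2.92), CYFIP2 of the WAVE actin complex (−2.85) and ELMO1, which activates Rac (−2.68).

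Among the genes with the greatest rises, COL1A2, a chain of type I collagen, was at 0.833, 1.94 and 0.38 CPM in resistant 1 and at 18, 27.2 and 12.9 CPM in resistant 2 (log2 fold change 4.17, SE 0.48, adjusted p = 4.8e-04). ABCB1, the multidrug efflux pump P-glycoprotein, was at 7.96, 6.26 and 5.36 CPM in resistant 1 and at 48.1, 50.1 and 56.0 CPM in resistant 2, which is 7.83-fold higher (adjusted p = 1.4e-06). The libraries of each group lay close together for ABCB1 and spread more for COL1A2. The T cell costimulatory receptor gene TNFRSF9 (3.46), CYTIP (3.39), SRPX (3.11), the calcium-binding protein gene GCA (3.09), MAGEB16 (3.07), SYTL5 (3.05), the Ras activator RASGRP3 (3.04), LINC01602 (3.04), GBP4 (2.90), PHLDA1 (2.81), smooth muscle actin ACTA2 (2.69) and the pseudogene NBEAP1 (2.68) completed the set. In resistant 2 the library numbered 2 was the lowest for TNFRSF9 (1.88 against 9.20 and 19.2 CPM), RASGRP3 (18.6 against 81.0 and 73.5 CPM) and PHLDA1 (22.9 against 90.8 and 114 CPM), though still above resistant 1. TNFRSF9 was no longer called without library 1 of resistant 1, with log2 fold changes of 2.60 to 3.97 over the fits that each left out 1 library. The other 27 of these 28 genes were called in all 6 of those fits.

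**Figure D2:**
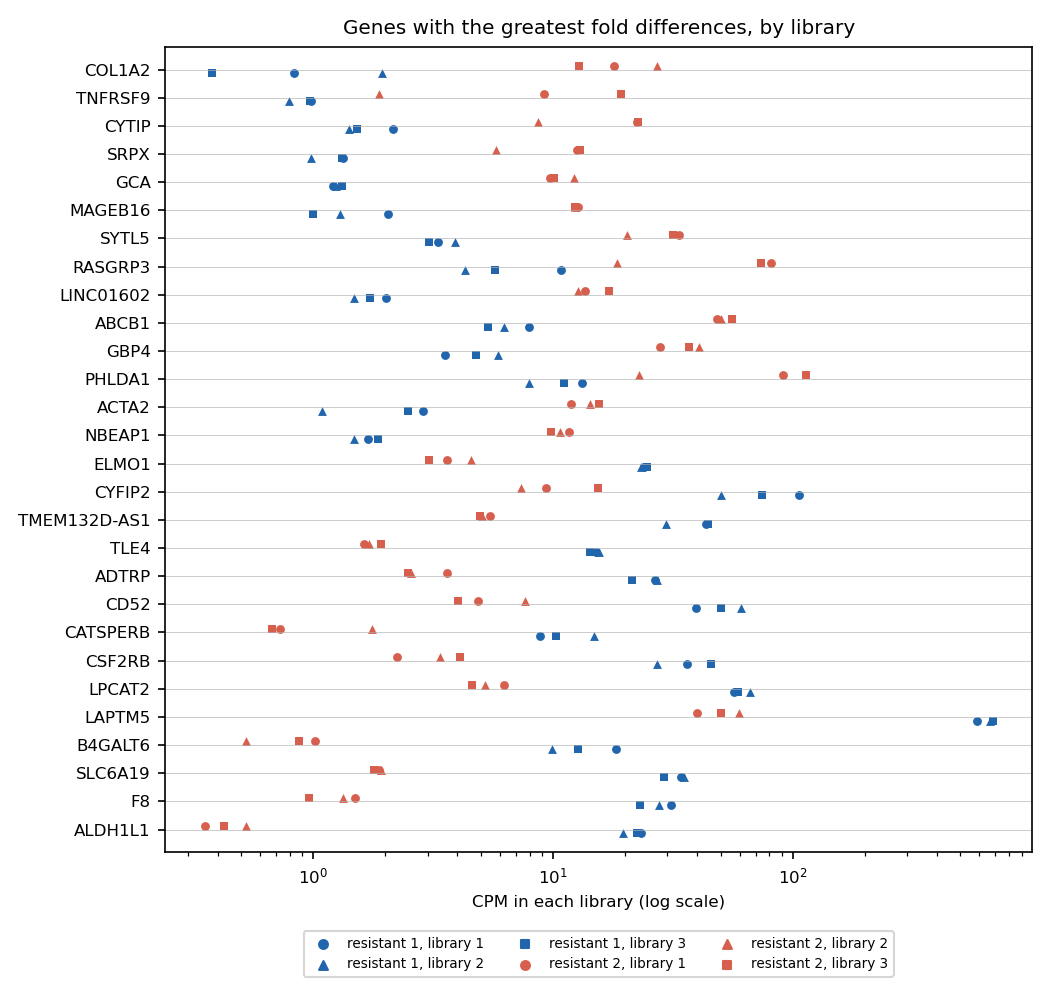
CPM in each of the 6 libraries, on a log axis, of the 14 genes with the greatest rises and the 14 with the greatest falls among called genes of at least 10 CPM in the higher group whose groups do not overlap; colours mark the group and symbols the library number. The groups lie apart for all 28 genes, and the triangle of resistant 2 lies lowest of its group for TNFRSF9, RASGRP3 and PHLDA1.

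Abundant genes moved less. TRIM44, a tripartite motif protein, rose from 542, 474 and 574 CPM to 1094, 792 and 1049 CPM (log2 fold change 0.88, SE 0.15, adjusted p = 0.0014). MAT2A, which makes the methyl donor S-adenosylmethionine, was at 98.6, 235 and 163 CPM in resistant 1 and at 1229, 275 and 886 CPM in resistant 2, where the library numbered 2 lay near resistant 1. Its log2 fold change of 2.27 (SE 0.56, adjusted p = 0.027) was no longer called with the replicate number as a block (2.14, adjusted p = 0.27), nor without library 1 of resistant 1, library 1 of resistant 2 or library 3 of resistant 2 (1.81 to 2.69 over all 6 fits). The RNA-binding protein gene HNRNPA1 fell from 3340.1, 2943 and 3076 CPM to 2062, 2187 and 1823 CPM (−0.62, SE 0.12, adjusted p = 0.0042).

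Some genes linked to interferon rose in resistant 2. Interferons act through receptors that activate a complex with STAT2 and IRF9, which switches on antiviral genes. Of 37 type I interferon genes tested, 8 were higher (21.6%, against 11.2% over all genes) and 4 lower (10.8%, near the 11.8% over all genes), with a median log2 fold change of 0.09, against −0.01 over all genes tested. IFIH1, the double-stranded RNA sensor MDA5, was at 9.35, 6.81 and 9.41 CPM in resistant 1 and at 31.7, 41.0 and 34.6 CPM in resistant 2 (log2 fold change 2.07, SE 0.17, adjusted p = 1.2e-05). The other risers were USP18 (1.88), SAMD9 (1.75), IFIT2 (1.64), IFIT1 (1.43), TAP1 (1.36), ISG15 (1.21) and OAS3 (0.76). IFIT1 stayed under 2 CPM in every library. The groups did not overlap for any of these 8 genes, and OAS3 lost its call without library 1 or 2 of resistant 1 or library 3 of resistant 2 (0.60 to 0.93 over the fits without 1 library). Without both libraries numbered 2, the counts were 12 higher and 5 lower.

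STAT2 and IRF9 were both lower. STAT2 fell from 66.0, 61.7 and 58.9 CPM to 33.0, 44.3 and 38.3 CPM (−0.69, SE 0.13, adjusted p = 0.0039). IRF9 fell from 8.64, 7.24 and 9.51 CPM to 4.57, 4.07 and 5.36 CPM (−0.86, SE 0.19, adjusted p = 0.0080). The membrane antiviral genes IFITM2 (−0.70) and IFITM3 (−0.43) were the other members that fell, and IFITM3 lost its call without library 3 of resistant 1, library 1 of resistant 2 or library 3 of resistant 2 (−0.45 to −0.41 over all 6 fits).

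The upstream sequences of 5 of the risers are shown because they carry copies of the motif GAAANNGAAA, the core of the interferon-stimulated response element. Each line gives the 160 bases before the RefSeq start of the gene (build GRCh38.p14), 5′ to 3′ on the strand of the gene, with the motif on either strand in capitals and overlapping copies merged.
IFIH1 (chr2:162318685-162318844, minus strand): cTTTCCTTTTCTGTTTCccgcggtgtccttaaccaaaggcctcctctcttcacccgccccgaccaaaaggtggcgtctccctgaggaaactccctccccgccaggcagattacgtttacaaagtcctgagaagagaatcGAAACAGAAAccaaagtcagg
IFIT1 (chr10:89392463-89392622, plus strand): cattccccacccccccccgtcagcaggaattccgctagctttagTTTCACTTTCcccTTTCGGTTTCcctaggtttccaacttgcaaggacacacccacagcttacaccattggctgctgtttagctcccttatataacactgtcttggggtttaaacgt
SAMD9 (chr7:93117980-93118139, minus strand): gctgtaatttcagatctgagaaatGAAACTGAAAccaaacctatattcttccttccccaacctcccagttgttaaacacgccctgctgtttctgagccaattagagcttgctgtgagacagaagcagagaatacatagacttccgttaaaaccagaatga
ISG15 (chr1:1013337-1013496, plus strand): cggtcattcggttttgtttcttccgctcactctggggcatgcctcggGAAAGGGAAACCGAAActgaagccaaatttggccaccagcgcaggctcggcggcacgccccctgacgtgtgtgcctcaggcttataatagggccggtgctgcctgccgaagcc
OAS3 (chr12:112938314-112938473, plus strand): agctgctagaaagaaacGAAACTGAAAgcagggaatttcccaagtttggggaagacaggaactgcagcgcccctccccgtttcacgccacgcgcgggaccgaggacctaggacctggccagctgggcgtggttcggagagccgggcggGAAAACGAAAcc

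Over the 250 bases before the start, this motif was in 3.02% of the 35116 promoters of the RefSeq table. Of the interferon genes that rose, 6 of the 6 with an entry held it (IFIT1, ISG15, OAS3, IFIH1, SAMD9 and TAP1), as did 1 of 3 that fell (IFITM3) and 9 of 18 that were not called. Among all genes with an entry, it was in 4.96% of those called higher, 3.86% of those called lower and 3.37% of those tested. A match describes these letters and is not evidence of binding.

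Guanylate-binding proteins are GTPases induced mainly by interferon gamma, and their genes lie side by side on chromosome 1 (GBP3 from 89006680 to 89022866, GBP5 from 89256189 to 89272860, GRCh38.p14). All 6 that were tested were higher in resistant 2. GBP1, GBP2 and GBP4 were in a list, and GBP3, GBP5 and GBP7 were added after their values were seen. GBP5 was at 14.9, 15.9 and 15.2 CPM in resistant 1 and at 76.3, 99.2 and 98.1 CPM in resistant 2 (log2 fold change 2.57, SE 0.14, adjusted p = 1.4e-06). GBP4 was at 3.54, 5.91 and 4.77 CPM in resistant 1 and at 28.0, 40.8 and 36.8 CPM in resistant 2 (2.90, SE 0.21). GBP1, GBP3 and GBP7 stayed under 2 CPM in all 6 libraries. The library numbered 2 of resistant 2 held 0.238 CPM of GBP1, against 1.59 and 1.5 in the other 2.

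The antigen processing genes next to each other in the major histocompatibility region of chromosome 6 rose too. They encode the immunoproteasome subunits PSMB8 (log2 fold change 1.19) and PSMB9 and the peptide transporter subunits TAP1 (1.36) and TAP2 (1.03). PSMB9 was at 7.35, 4.61 and 8.16 CPM in resistant 1 and at 26.4, 25.7 and 28.0 CPM in resistant 2 (log2 fold change 1.99, SE 0.20, adjusted p = 5.0e-05). The presenting molecules were not called. HLA-B stayed under 1.1 CPM in all 6 libraries, and B2M, the light chain of class I molecules, was at 565, 491 and 552 CPM in resistant 1 and at 442, 444 and 441 CPM in resistant 2 (−0.28, SE 0.11, adjusted p = 0.095). TAPBP, which loads peptides, fell (−0.59). The class II invariant chain CD74 had 62 counts in all over the resistant 1 libraries and 1 count over the resistant 2 libraries, a ratio of 71.4 (95% counting interval 12.4 to 2870). Counting intervals here and below rest on the summed counts of each group and leave out the spread between libraries. In the whole list of 18 antigen presentation and interferon gamma genes tested, 7 were higher (38.9%, against 11.2% over all genes), with a median log2 fold change of 0.02. The higher genes included GBP1 and GBP4, described above, which do not present antigens. This share is thus not separate from the rises already given. The 2 lower genes (11.1%) lay near the 11.8% over all genes. Without both libraries numbered 2 the counts were 7 higher and 5 lower.

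**Figure D3:**
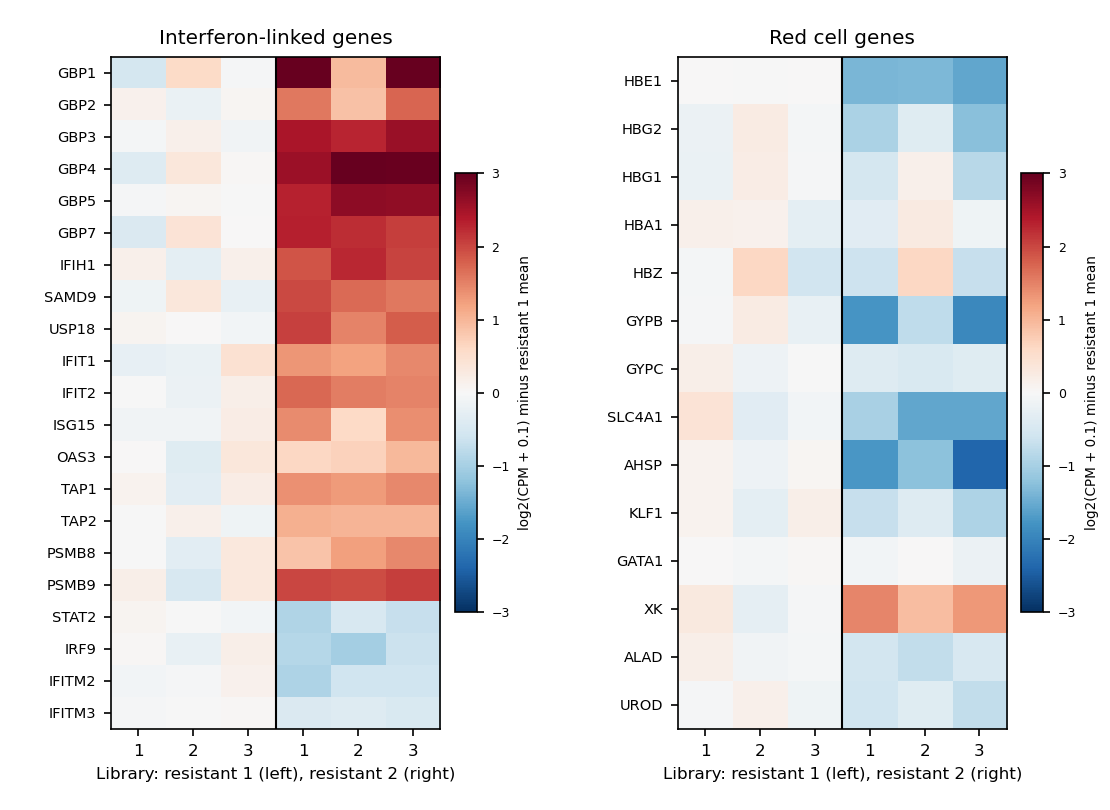
Difference of each library from the mean of the resistant 1 libraries, as log2(CPM + 0.1), for interferon-linked genes (left) and red cell genes (right), with resistant 1 libraries left and resistant 2 libraries right of the line in each panel; red is higher and blue lower, and colours end at 3 in size. GBP4, GBP5, IFIH1 and PSMB9 are red in all 3 resistant 2 libraries, STAT2 and IRF9 are blue, and GATA1 stays near 0.

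Of 29 NF-kB genes tested, 7 were higher (24.1%, against 11.2% over all genes), with a median log2 fold change of 0.12. The 3 lower genes (10.3%) lay near the 11.8% over all genes. The fits without 1 library gave 3 to 8 higher and 0 to 3 lower. There were 3 higher without library 1 of either group or library 3 of resistant 1, and 4 without library 3 of resistant 2. The 3 lower became 0 without library 3 of resistant 1 and 1 without library 1 of resistant 2. BIRC3, an inhibitor of apoptosis and an NF-kB target, rose from 3.85, 2.94 and 3.08 CPM to 16.6, 9.61 and 20.2 CPM (2.23, SE 0.26, adjusted p = 1.5e-04), and the cytokine gene IL6 rose by 1.79 from 2.71, 1.25 and 1.42 CPM. The chemokine gene CXCL8 was at 2.75, 2.28 and 2.32 CPM in resistant 1 and at 13.7, 2.62 and 12.2 CPM in resistant 2, so the library numbered 2 of resistant 2 lay within the range of resistant 1 (1.95, adjusted p = 0.026). TNFAIP3, which damps NF-kB, had the same pattern, at 104, 44.4 and 113 CPM in resistant 2 against 46.4, 34.6 and 45.2 CPM (1.05, adjusted p = 0.038). NFKBIA, the inhibitor that holds NF-kB in the cytoplasm, fell (−0.59, adjusted p = 0.017). NFKB2 (0.19, adjusted p = 0.29) was not called; RELB (0.93, adjusted p = 0.14) was called with the replicate block (0.85, adjusted p = 0.021). Calls of CXCL8 (1.59 to 2.41 over the fits without 1 library) and TNFAIP3 (0.82 to 1.38) were lost without library 1 or 3 of either group, that of TNFAIP3 also without library 2 of resistant 1, and the call of NFKBIA (−0.68 to −0.47) without library 3 of resistant 1 or library 1 of resistant 2.

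The death receptor gene FAS and the cell cycle inhibitor gene CDKN1A were higher. FAS was at 0.791, 1.17 and 1.31 CPM in resistant 1 and at 8.65, 7.59 and 10.6 CPM in resistant 2 (log2 fold change 3.06, SE 0.25, adjusted p = 1.2e-05). CDKN1A, which encodes p21, rose from 23, 15.7 and 17.9 CPM to 68.1, 46.6 and 68.5 CPM (1.69, SE 0.19). The groups were well apart for both. Of 32 genes of the BCL2 family and death receptors 6 were higher (18.8%, against 11.2% over all genes) and 0 lower (median 0.20); the counts were 8 and 2 with the replicate block and 11 and 2 without both libraries numbered 2. The survival gene BCL2L1 (−0.09, adjusted p = 0.60) and MYC (0.12, adjusted p = 0.57) were not called.

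STAT2, STAT3 and STAT6 were lower, and cytokine receptors moved both ways. Of 22 STAT, PIM and SOCS genes tested 7 were lower (31.8%, against 11.8% over all genes) and 2 higher, and the 2 higher became 0 without library 3 of resistant 1 and 1 without library 1 or 3 of resistant 2. STAT3 fell from 388, 427 and 396 CPM to 196, 294 and 195 CPM (log2 fold change −0.82, SE 0.16, adjusted p = 0.0040) and STAT6 from 36.8, 39.0 and 43.0 CPM to 20.7, 22.7 and 24.8 CPM (−0.80). The phosphatase genes PTPN6 (−2.18) and INPP5D (−2.20), which curb receptor signalling in blood cells, fell as well. Of 33 cytokines and receptors, 8 were higher (24.2%) and 5 lower (15.2%, near the 11.8% over all genes), with CSF2RB, the inflammasome cytokine IL18 (−1.94) and IL1R1 (−1.83) falling furthest and FAS, CXCL8 and IL6 rising furthest. The 8 higher became 5 without library 1 or 3 of either group, and 13 without library 2 of resistant 2 or without both libraries numbered 2. Of the monocyte markers, TYROBP, an adaptor of myeloid receptors, was at 4.87, 3.58 and 4.70 CPM in resistant 1 and at 0.265, 0.357 and 0.246 CPM in resistant 2 (−3.91, SE 0.29). Of 12 monocyte markers tested 6 were lower (50%, against 11.8% over all genes) and 1 higher, the Fc receptor gene FCGR2A (0.93). There were 3 higher without library 2 of resistant 2 or without both libraries numbered 2. The summed level of the 12 monocyte markers tested ran the other way, at 477 to 555 CPM in resistant 1 and 632 to 754 CPM in resistant 2. FCGR2A alone held 236 to 274 and 440 to 539 CPM of it. The same 12 genes summed to 864 to 912 CPM in vehicle libraries. That sum leaves out markers that did not pass the filter in the resistant libraries. MPEG1 was at 0 counts in all 6 libraries. The 5 lymphocyte markers tested summed to 49.6 to 62.4 CPM in resistant 1 and 13.8 to 14.7 CPM in resistant 2. Of the 5, 4 were lower (80%), and 2 were lower without library 2 of resistant 1 or library 1 or 3 of resistant 2. The part of such markers in the other results was not tested.

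Red cell genes were lower. Of 39 erythroid markers tested, 17 fell and 1 rose (2.56% higher and 43.6% lower, against 11.2% and 11.8% over all genes), with a median log2 fold change of −0.50. The fits without 1 library gave 9 to 21 lower, with 9 without library 3 and 10 without library 1 of resistant 2, and 11 without library 1 of resistant 1. HBE1, the embryonic epsilon globin, was at 220, 215 and 220 CPM in resistant 1 and at 84.8, 85.3 and 73.5 CPM in resistant 2 (−1.43, SE 0.11, adjusted p = 9.4e-06). AHSP, the chaperone of alpha globin (−1.78), GYPB (−1.43) and the anion exchanger SLC4A1 (−1.39) fell too, and XK, a membrane protein of the Kell complex, rose (1.23). The gamma globin gene HBG2 fell (−0.82, adjusted p = 0.017), while its near-identical copy HBG1 (−0.35, adjusted p = 0.28) was called with the replicate block (−0.40, adjusted p = 0.036); the counting may split reads between the pair. HBA1 (−0.06) and HBZ (−0.18) were not called.

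Among the factors that drive red cell genes, GATA1 was at 170, 164 and 175 CPM in resistant 1 and at 159, 171 and 152 CPM in resistant 2 and overlapped (−0.08, SE 0.11, adjusted p = 0.62). KLF1 fell (−0.66, adjusted p = 0.015), but lost its call without library 1 or 3 of either group (−0.80 to −0.54 over the 6 fits). HBG2 lost its call without library 2 of resistant 1 or library 1 or 3 of resistant 2 (−1.09 to −0.63). Of 19 heme synthesis genes 8 were lower (42.1%, against 11.8% over all genes) and 0 higher (median −0.34). The 8 lower became 2 without library 1 of resistant 1, 5 without library 3 of resistant 1 and 3 without library 1 or 3 of resistant 2. UROD, an enzyme of that pathway, went from 196, 222 and 184 CPM to 132, 157 and 121 CPM (−0.56, adjusted p = 0.011). UROD lost its call without library 1 or 3 of resistant 2 (−0.65 to −0.47). The summed level of the 39 erythroid markers tested was 4761 to 4990 CPM in resistant 1 and 3264 to 4306 CPM in resistant 2. In bulk RNA, fewer cells of a kind and less RNA per cell cannot be told apart.

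Of 39 lysosome genes tested 19 were lower (48.7%, against 11.8% over all genes) and 1 higher (median −0.38). Without library 1 or 3 of either group 10 or 11 were lower. Without both libraries numbered 2 the counts were 22 and 3. CTSD, the protease cathepsin D, fell from 88.0, 69.5 and 83.4 CPM to 27.4, 27.1 and 27.3 CPM (−1.56, SE 0.13, adjusted p = 1.2e-05). NPC2, which hands cholesterol out of the lysosome, fell from 33.9, 19.8 and 33.7 CPM to 9.47, 8.87 and 10.1 CPM (−1.62, SE 0.20). CTSS (−1.68) and PSAP, the precursor of the saposins (−1.01), also fell. Libraries of the groups did not overlap for any of these 4 genes.

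Sterol genes were lower where they were called. Of 22 cholesterol synthesis genes 5 were lower (22.7%, against 11.8% over all genes) and 0 higher (median −0.36). With the replicate block 11 were lower, and without both libraries numbered 2 the counts were 12 lower and 2 higher. The fits without 1 library gave 1 to 11 lower, with 11 without library 2 of resistant 2, 1 without library 1 of resistant 2, 2 without library 3 of either group and 3 without library 1 or 2 of resistant 1. The sterol enzyme gene MSMO1 was at 75.2, 66.7 and 70.9 CPM in resistant 1 and at 31.4, 44.5 and 16.8 CPM in resistant 2 (−1.20, SE 0.29, adjusted p = 0.017). ERG28 (−0.80) and CYP51A1 (−0.65) fell. INSIG1, which retains the SREBP complex, was close to the threshold (−0.88, adjusted p = 0.047). HMGCS1, an early enzyme of the pathway, was not called (−0.39) but was with the replicate block (−0.42, adjusted p = 0.045) and without both libraries numbered 2 (−0.63). SQLE (−0.05), SREBF2 (−0.25), DHCR7 (−0.02), EBP (−0.14), SOAT1 (−0.17) and NPC1 (0.18) were not called; without both libraries numbered 2, SQLE (−0.32) and SREBF2 (−0.31) were. APOE, the lipid carrier, fell from 145, 140 and 165 CPM to 47.0, 42.9 and 43.4 CPM (−1.75, SE 0.12). Over the fits without 1 library, MSMO1 (−1.54 to −0.90) lost its call without library 1 of either group, CYP51A1 (−0.86 to −0.51) without library 3 of resistant 1 or library 1 or 3 of resistant 2, and INSIG1 (−1.24 to −0.60) without each of the resistant 1 libraries in turn or library 1 of resistant 2.

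At the cell surface, CD44, a hyaluronan receptor, rose from 89.3, 78.1 and 115 CPM to 281, 362 and 292 CPM (log2 fold change 1.73, SE 0.16, adjusted p = 3.0e-05). SDC2, a heparan sulfate proteoglycan, rose by 2.58 from 2.40, 2.15 and 1.80 CPM. Of 30 glycosaminoglycan genes 9 were higher (30%, against 11.2% over all genes) and 3 lower (10%, near the 11.8% over all genes). There were 2 higher without library 1 or 3 of either group and 5 without library 2 of resistant 1. Of 23 ABC transporters, 7 were higher (30.4%) and 3 lower (13%, near the 11.8% over all genes). There were 4 higher without library 1 or 3 of resistant 1 or library 1 of resistant 2. The 3 lower became 1 without library 1 of either group or library 3 of resistant 2 and 5 without library 2 of resistant 2, as with the replicate block, and the counts were 10 and 6 without both libraries numbered 2. ABCB1 rose furthest of them, and ABCB4, its neighbour on chromosome 7 (1.67), was under 1 CPM in every library and lost its call without library 1 of either group (1.42 to 1.93 over the 6 fits). Of 28 integrin and adhesion genes 8 were lower, led by ITGB7 (−2.17), and 5 higher (28.6% and 17.9%), and 5 were lower without library 3 of resistant 1. Cancer-testis antigens, silent in most tissues, moved both ways. Of 20 tested 7 were lower (35%), led by CTAG2 (−4.30), and 4 higher (20%), led by BAGE (2.71). The 4 higher became 2 without library 1 or 3 of either group and 8 without both libraries numbered 2.

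Several large families had small negative medians. Of 45 ribosomal protein genes 10 were lower and 0 higher (median −0.21), of 31 proteasome genes 9 and 0, of 37 oxidative phosphorylation genes 6 and 0, and of 38 genes of the G2 and M phases 7 and 0. The lower shares of the last 2 lists, 16.2% and 18.4%, lie near the 11.8% over all genes; those of ribosomal and proteasome genes were 22.2% and 29%. Counts moved with the libraries: with the replicate block 15 oxidative phosphorylation, 15 ribosomal and 12 G2 and M genes were lower, and without both libraries numbered 2 the lower counts were 22, 22 and 26. Leaving out library 2 of resistant 2 alone gave 17, 9 and 26, and leaving out library 1 or library 3 of resistant 2 gave 0 for oxidative phosphorylation and for G2 and M genes. Without library 1, 2 or 3 of resistant 1 there were 2, 3 and 0 lower oxidative phosphorylation genes, 4, 4 and 1 lower G2 and M genes and 4, 18 and 3 lower ribosomal genes, and without library 3 of resistant 2 there were 5 lower ribosomal genes. The 9 lower proteasome genes became 4 without library 1 or 3 of resistant 2, 5 without library 2 or 3 of resistant 1 and 15 without library 2 of resistant 2. Of 47 replication-dependent histone genes listed, only 18 were in the deposited counts under the symbols used, and 14 were tested. Of these 14, 8 were higher (57.1%, against 11.2% over all genes) and 0 lower (median 0.68). In the fits without 1 library 4 to 9 were higher, with 4 without library 1 of resistant 2 and 5 without library 3 of resistant 1. HIST1H4H was at 21.6, 17.7 and 18.9 CPM in resistant 1 and at 67.3, 28.4 and 55.4 CPM in resistant 2 (1.38, SE 0.26). ATF4 and amino acid stress genes had 6 of 28 higher (21.4%) and 2 lower (7.14%). With the replicate block 13 were higher, with 12 without library 2 of resistant 2 and 15 (with 4 lower) without both libraries numbered 2. But 3 were higher without library 1 of resistant 2, and 1 without library 1 or 3 of resistant 1 or library 3 of resistant 2. Immediate early genes had 4 of 20 higher (20%), and 8 with the block. Higher counts were 9 without library 2 of resistant 2 or without both libraries numbered 2, and 2 without library 1 or 3 of either group. ATF3 rose by 1.49. The library numbered 2 of resistant 2 was the lowest of its group for HIST1H4H and for ATF3 (51.9 against 91.3 and 143 CPM).

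**Figure D4:**
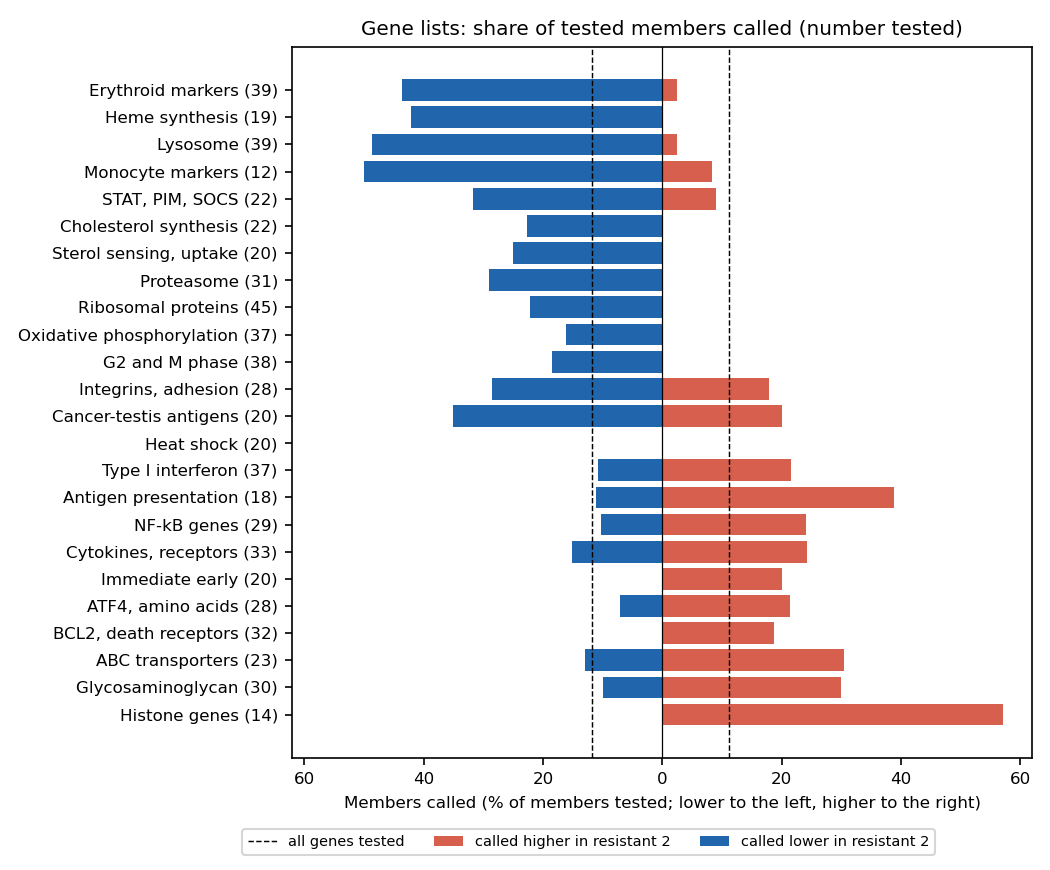
Share of the tested members of 24 gene lists that were called higher (red, right) or lower (blue, left) in resistant 2, with the number tested in brackets; dashed lines mark the shares over all genes tested (11.2% and 11.8%). Not all lists are drawn, and the lymphocyte markers (80% of 5 tested lower) are among those left out. Among the lists drawn, erythroid, heme, lysosome and monocyte bars extend furthest to the left and the histone and antigen presentation bars furthest to the right.

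Fold changes were not spread evenly over the genome. Chromosome 14 held 161 lower genes of 429 tested (37.5%, against 11.8% over all genes) and 41 higher, with a median log2 fold change of −0.35. Chromosome 18 (22.7% lower), chromosome 4 (22.2%) and chromosome 12 (20.5%) followed, and chromosome X had the greatest share of higher genes, at 18.1%. Relative to resistant 1, the median over chromosome 14 genes of at least 2 CPM was −0.33, −0.31 and −0.33 in the 3 resistant 2 libraries, so all 3 were shifted alike.

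A running median of 31 neighbouring genes reached 0.4 in size in 4.03% of 10499 windows. Stretches of at least 10 such windows in a row made up 10 runs, 5 lower and 5 higher, and shorter stretches were left out. Since the runs were chosen by these fold changes, their values are a description. The longest spanned 37.1 Mb of chromosome 14, from SCFD1 to VTI1B, where 82 of 152 genes tested were lower and 8 higher. MIPOL1 in it fell from 57.3, 42.1 and 53.9 CPM to 24.9, 21.5 and 23 CPM (−1.14), while the adhesion gene FERMT2 rose (1.88). A second run of chromosome 14, LINC00641 to KHNYN, had 35 of 65 genes lower and held DHRS4 (−1.97), and a run of chromosome 12, SMAGP to NDUFA4L2, had 56 of 104 lower and held HOXC10 (−3.56) and TESPA1 (−2.63). The run of chromosome 18, ESCO1 to PIK3C3, had 18 of 42 lower and held B4GALT6, and that of chromosome 17, FZD2 to MAPT, had 7 of 23 lower. The distal end of chromosome 14 went the other way, with 5 of 12 genes higher from TNFAIP2 to C14ORF2.

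Several genes described above lie in these runs. STAT2, STAT6 and HNRNPA1 are in the chromosome 12 run, IRF9 in LINC00641 to KHNYN and NFKBIA in SCFD1 to VTI1B. Lower runs held 386 of the genes tested, of which 198 were lower (51.3%), and the 13600 genes outside all runs had 1502 higher and 1460 lower. Of the 39 erythroid, 39 lysosome and 19 heme genes tested, 37, 37 and 19 lie outside the runs. Of those, 15, 18 and 8 were lower. Some other lists had a greater share of their lower genes in the runs. Of the 9 lower proteasome genes 4 lie in lower runs, and of the 27 tested outside the runs 5 were lower. Of the 7 lower STAT, PIM and SOCS genes 2 lie in lower runs, and of the 20 tested outside 5 were lower.

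On chromosome 11, the run from APIP to TSPAN18 had 14 of 24 genes higher, among them CD44, TRIM44, ALX4 (1.39) and the DNA repair gene ALKBH3 (0.95), while TSPAN18 itself fell (−2.57). The other higher runs were 3 clusters of zinc finger genes on chromosome 19, whose proteins mostly bind DNA and recruit the corepressor TRIM28. From ZNF566 to ZFP30, 19 of 26 genes were higher and 0 lower, from ZNF283 to BCL3 18 of 24 and 0, and from ZNF460 to ZNF587 10 of 25 and 1. ZNF420 rose from 15, 14.3 and 17.1 CPM to 53.1, 34.1 and 47.1 CPM (1.54, SE 0.17, adjusted p = 1.0e-04), and ZNF568 (2.37) and ZNF155 (1.76) rose from levels near 1 CPM. ZNF and ZFP genes of other chromosomes had 39 of 257 higher (15.2%) and 23 lower (8.95%), near the shares over all genes (median 0.07).

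**Figure D5:**
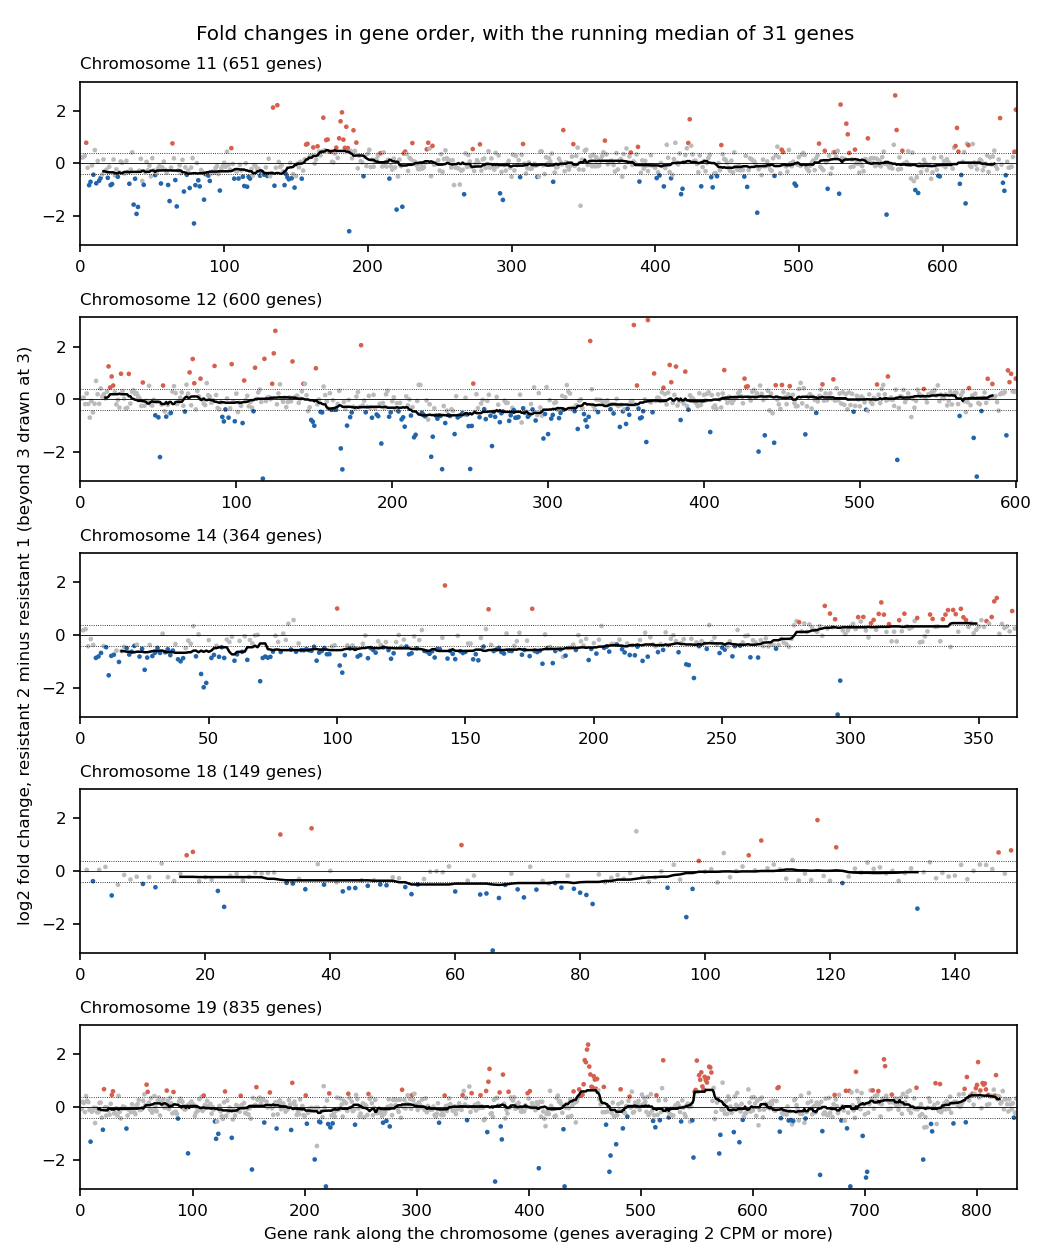
Log2 fold change (resistant 2 minus resistant 1) of genes averaging at least 2 CPM in their order along chromosomes 11, 12, 14, 18 and 19, with called genes in red (higher) and blue (lower) and the running median of 31 genes as a black line; dotted lines mark 0.4 in size. Chromosome 14 lies below 0 for most of its length and above 0 at its end, and 3 narrow peaks stand on chromosome 19.

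Libraries of batch 1 that the comparison did not use were set beside the called genes. They were sequenced apart and are scaled only by their totals, so a difference between batches may enter. Of the 756 genes higher by at least 2-fold, the K562 parental level was nearer to resistant 1 for 630 (83.3%). Of the 577 lower by at least 2-fold it was nearer to resistant 1 for 193 (33.4%), against 51.2% of all genes tested. In both sets K562 was thus more often nearer to the group with the lower level. The median levels of these sets were 2.06 and 2.51 CPM, against 23.2 CPM over all genes tested. In K562 parental, 40 of the 756 and 11 of the 577 were at 0. The level in resistant 1 of batch 1, labelled as the same biological replicate, was nearer to resistant 1 for 529 of the higher genes (70%), but for 290 of the lower genes (50.3%), about the 51.4% of all genes tested. LAPTM5 had a mean of 54.3 CPM in K562 parental and 197 CPM in resistant 1 of batch 1, and GBP5 had 1.75 and 5.64 CPM. ABCB1 lay between the groups, with 23.6 CPM in K562 parental and 9.63 CPM in resistant 1 of batch 1. HBE1 was far higher in both than in either group here, at 1064 and 1372 CPM.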

How the data were processed

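Messenger RNA was measured in 21 libraries; 6 enter the comparison. Per the labels' protocols, strand-specific libraries were made from total RNA, and the submitters' processing notes name the build hg38 and DESeq2 1.22.1. The authors deposited whole-number raw counts for each gene symbol, not normalized. No aligner version, annotation or counting by strand is given in the sources used, so overlapping genes and near-identical copies are uncertain. The files hold 0 columns without a sample.

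From the counts, edgeR 4.0.16 (R 4.3.3) was run on the 6 libraries: filterByExpr, TMM scaling, robust quasi-likelihood fit, two-sided test and Benjamini-Hochberg adjustment over 14097 genes, called under 0.05. The SE of a log2 fold change was derived from the test, as its size divided by the square root of the F statistic. CPM are relative to the TMM-scaled total, except in libraries outside the comparison (raw total). The fit was tested on simulated data. DESeq2 1.42.0 was an alternative. Positions came from RefSeq (GRCh38.p14), with 13088 genes matched by symbol, 115 by symbol ignoring case, 608 by synonym and 286 unmatched.

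Named genes were the 14 rises and 14 falls of greatest size among called genes of at least 10 CPM in the higher group without overlap, the 5 most abundant called genes in each direction past 0.5, up to 3 called members in each direction of a described list, 28 fixed genes and up to 6 of a run. Other genes with values, such as GBP5, TAP1, STAT3, STAT6, PSAP and UROD, were chosen after their values were seen. Members and lists were chosen with earlier results of these data known. Some genes are not reported here. Deviations from group means of same-numbered libraries correlated at 0.158, 0.316 and 0.106, all over 0.1, although library 1 of resistant 1 correlated more with library 3 of resistant 2 (0.226) than with library 1; by that threshold the sample numbers of the labels were taken as pairs for an alternative fit with the replicate number as a block.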

Additional observations from a re-analysis of the deposited data

How the results depend on the processing

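The counts of 1581 higher, 1661 lower and 1333 genes past 2-fold stayed within 1.5 times under the fit of 9 libraries, the size factors and the test of DESeq2, no low-count filter, a non-robust fit and the omission of OCI-AML3 genes. Every call shared with these fits kept its direction. With the replicate block (paired sample numbers), 2157 genes were higher and 2279 lower, within 1.5 times, and among the genes named in the text it changed the calls of MAT2A, HMGCS1, RELB and HBG1 and of no other. A filter of 5 CPM left 548 genes past 2-fold, of 10370 tested. Leaving out 1 library gave 829 to 2410 higher, 952 to 2261 lower and 1039 to 1632 past 2-fold. Without both libraries numbered 2, chosen after seeing the data, 3073 were higher and 2874 lower; the cause was not tested. Of 235 called genes followed through these fits, 149 kept the call in every fit without 1 library that tested them. GBP1, one of these, passed the low-count filter in only 4 of the 6 fits. The difference in summed OCI-AML3 genes (2.24 CPM) was −1.57 CPM with a 50 CPM definition and −1.0 to 5.66 CPM without 1 library, and that in K562 genes (−536 CPM) was 576.5 CPM with raw totals, a change of scaling; an exact test of 3 against 3 cannot pass 0.05. Counting limits genes under 1 CPM most.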

Other observations

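The libraries numbered 2 differed from the other 2 of their group in a like way in both groups. Of 8997 genes averaging at least 10 CPM, 59 were higher and 123 lower by at least 0.5 (log2) in both number 2 libraries, and 11 went in opposite directions. TXNIP, which binds thioredoxin, was 2.34 higher in library 2 of resistant 1 and 1.21 higher in library 2 of resistant 2, and its relative ARRDC4 was 2.78 and 1.51 higher. The stress cytokine gene GDF15 was 1.47 and 1.10 lower, and the AP-1 gene JUN was 1.14 and 1.08 lower. These genes were chosen after their values were seen.

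Outside the lists, the orphan receptor gene GPR37, chosen after its values were seen, had 2 counts over the resistant 1 libraries and 262 over the resistant 2 libraries, a ratio of 113.7 (95% counting interval 31.2 to 944). LINC01162 had 193 counts in resistant 1 and 1 in resistant 2, a ratio of 222.4 (39.4 to 8830).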
